A study of Mus musculus with 4 samples.

Results

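The cytosolic ribosomal protein genes encode the protein parts of the ribosome that translates cytoplasmic mRNAs. Members were all symbols of the form Rpl or Rps with a number and an optional letter a, l, x or y, together with Rplp0, Rplp1, Rplp2 and Rpsa. Pseudogene symbols and the Rps6k kinases were left out, and the Ensembl ID had to stand in the gene lists of both tissues. This gave 80 members out of 27566 genes common to both lists, 49 of the large and 31 of the small subunit. Ribosomal proteins wrap ribosomal RNA, and with few exceptions each is present in a single copy per ribosome, so their mRNAs are usually produced in proportion. Most of these mRNAs start with a run of pyrimidines, the terminal oligopyrimidine or TOP tract, through which mTOR signalling sets their translation. In blood formation the group is known because loss of 1 copy of several members causes Diamond-Blackfan anaemia, a failure of red cell production.

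The study traced where lymphoid tissue inducer (LTi) cells come from. These innate lymphocytes of the fetus seed lymph nodes, and the cells were taken from C57BL/6J mouse embryos for which the labels give no genetic change or treatment. CD45+ cells were enriched on magnetic beads, and live CD45+ F4/80- IL7Rα+ cells were sorted from fetal liver and from the embryonic periphery at the embryonic days E13.5 and E14.5. Each of the 4 groups was 1 droplet library read from the 3′ end of transcripts, with 10x kit version 3 for fetal liver and version 2 for periphery. The number of embryos behind a library is not given in the sources used here, and tissue and kit cannot be told apart. With 1 library per group no difference below has a replicate check, no test was made, and intervals cover counting error only.

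The kept cells numbered 10223 (E13.5) and 10833 (E14.5) in fetal liver, and 4165 and 4354 in periphery, with median depths of 8503 to 18430 UMIs (unique molecules counted). Of the sort markers, Il7r stood at 150.3 to 394 CPM (UMIs of a gene scaled to a common total per library) in the 4 libraries, Ptprc, which encodes CD45, at 61.9 to 143, and Adgre1, which encodes F4/80, at 2.04 to 8.20. Cells resembling LTi cells by their markers were 3.78 and 1.98% of the fetal liver cells at the 2 stages, against 35.5 and 73.0% in periphery. These shares hold for the main clustering. Other clusterings named clearly more or fewer of the E13.5 periphery cells LTi-like. Kept cells of the 2 fetal liver libraries shared 25 barcodes and those of the 2 periphery libraries 26, with at most 1 between tissues.

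Ribosomal protein mRNAs took a larger share of all UMIs in periphery than in fetal liver, and within periphery a smaller share at E14.5 than at E13.5. The members held 18.3% of UMIs in fetal liver at E13.5 (18.33 to 18.34, exact 95% binomial interval) and 18.7% at E14.5 (18.68 to 18.70). In periphery they held 28.5% at E13.5 (28.48 to 28.50) and 23.1% at E14.5 (23.11 to 23.14). The median fetal liver cell had 18.4% (E13.5) or 18.8% (E14.5), the median periphery cell 28.5 or 23.1%, and with every cell thinned to 3000 UMIs the medians were 18.4, 18.8, 28.6 and 23.2%. The range from the 5th to the 95th percentile of cells was 21.4 to 34.1% in E13.5 periphery and 17.8 to 27.8% in E14.5 periphery, so single cells overlapped. Of the E14.5 periphery cells, 3.15% lay above the E13.5 median, whereas in fetal liver 58.3% of E14.5 cells did. The balance of the 2 subunits differed little between the 4 libraries, with small subunit members at 45.9 to 46.8% of the ribosomal protein UMIs.

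**Figure D1:**
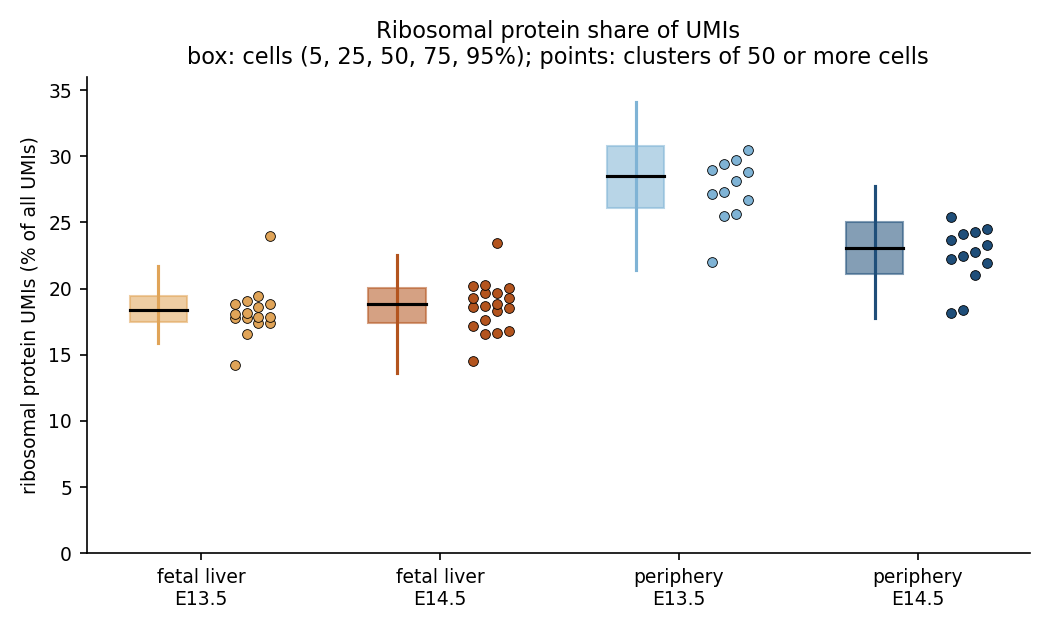
Share of UMIs from ribosomal protein genes (vertical axis, percent) in the 4 libraries. Boxes span the quartiles of cells with the median as a line and the 5th to 95th percentile as a thin bar, and points are clusters of at least 50 cells. The fetal liver medians were 18.4 and 18.8%, those of periphery 28.5 and 23.1%.

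The step between the periphery stages was seen in each of the clusters that both libraries held. Cells were clustered in each tissue without ribosomal protein genes, and 8 periphery clusters had at least 50 cells at both stages. All 8 had a lower share at E14.5, with differences from -7.098 to -3.88 percentage points. The share of LTi-like cells went from 27.7% (27.71 to 27.75) to 22.8% (22.74 to 22.77), with clusters P0 and P8 holding most of them at the first stage and P5, P16 and P6 at the second. B lineage-like cells went from 29.4 to 25.5%, innate lymphoid or NK cells of group 1 type from 28.5 to 23.5%, and mast cell or basophil-like cells from 22.9 to 18.8%. The widest step, in the monocyte or macrophage-like cluster P13, came with a median depth of 11226 UMIs at E13.5 and 1352.5 at E14.5, and the part of depth in it was not tested.

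Fetal liver clusters moved little and in both directions. Of 16 clusters with 50 cells at both stages, 11 had a higher share at E14.5 and 5 a lower one, with differences from -0.82 to 1.11 percentage points. The lymphoid progenitor-like cluster FL3 was at 18.6 and 19.7%, and the LTi-like cluster FL2 at 17.8 and 17.2%. Within fetal liver the mast cell or basophil-like cluster FL16 had the lowest share at both stages, 14.2 and 14.52%. In periphery the mast cell or basophil-like cluster P15 was lowest at both stages, at 22.02 and 18.1%. The highest share in fetal liver, 23.96 and 23.4%, was that of FL11, an unnamed cluster of low depth with medians of 3374 and 2470 UMIs.

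Levels of single members spanned several orders of magnitude. In the 4 libraries 71 to 73 members stood at 100 CPM or more, and 60 to 66 at 1000 CPM or more. The highest mean levels were those of Rps27a, a fusion of ubiquitin with a small subunit protein, Rpl13, Rpl32, Rps4x and Rpsa, the laminin receptor-related protein of the small subunit. Rps27a had 6106 and 5943 CPM in fetal liver and 7164 and 5039 in periphery. Rpl13 had 6005, 5846, 7631 and 4477 CPM in the same order, and Rpl32 had 4258, 4167, 7960.3 and 6558. Rps4x, the X-linked form of a small subunit protein, had 6093, 6150.1, 5864 and 3948 CPM. These 5 members were all lower at E14.5 than at E13.5 in periphery on this scale.

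Several of the lowest members have transcripts nearly identical to those of other genes, although high members such as Rpl41 share much of their sequence too. The last 500 bases of each member's transcript were cut into 60-base words and searched for in the transcripts of the other genes of each list. Rpl10 shared 100% of these words with another listed gene, Rps27 98.6%, Rps12 96.8%, Rpl9 86.4% and Rpl27 79.8%. Rpl10 had 12.3, 12.9, 43.9 and 73.9 CPM in the order fetal liver E13.5, E14.5, periphery E13.5, E14.5, and Rps27 had 12.4, 14.3, 50.7 and 33.4. Rps12 was at 25.5, 29.2, 7.11 and 2.84 CPM. The values of such genes are uncertain, since reads that match several genes are usually not counted. In all, 18 members shared 5% or more of these words with a gene of the fetal liver list and 24 with a gene of the periphery list, while 55 were under 5% in both. The muscle paralog Rpl3l and the testis paralog Rpl10l were at 0.289 and 0.112 CPM in E13.5 fetal liver, and at most 0.455 CPM in any of the 4 libraries, beside 3008 to 4546 CPM for Rpl3.

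Between the stages of fetal liver the members hardly moved. Folds are log2 ratios of CPM after adding 5 CPM to each side, minus the median ratio of all genes with at least 10 CPM in either library. That median was -0.03 for the fetal liver stages and 0.23 for the periphery stages. For fetal liver over periphery it was 0.41 (E13.5) and 0.17 (E14.5). Of 77 measured members in fetal liver, 56 lay above the median of all genes and 21 below, with a median of 0.08 and a range of -0.19 to 0.39. No member was 0.5 or more above it and none 0.5 or more below, against 3.51 and 2.87% of all 7741 genes measured. The highest were Rpl36a at 0.39, the stalk protein Rplp2 and Rpl38 at 0.33 each, Rpl35 at 0.32 and Rps26 at 0.29. Among the lowest were Rpl13a at -0.19, Rpl3 at -0.17 and Rpl4 at -0.16, and Rpl7 was at -0.07.

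Between the stages of periphery the members split into a large group that was lower at E14.5 and a small group that was higher. Of 77 measured members, 15 lay above the median of all genes and 62 below. There were 50 members 0.5 or more below it, where 8.36% of all 7237 genes were, and 12 members 0.5 or more above it, where 7.67% of all genes were. The members' median was -0.67. Without centring it was -0.44, with 21 members above 0, 15 of them by 0.5 or more, and 32 members 0.5 or more below 0. The shares of all genes past these uncentred limits were not computed, so these counts cannot be set against them. Counting error was at most 0.12 log2 units for a fold, and at most 0.07 for members with a mean of 100 CPM or more.

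The highest folds belonged to small proteins. Rps28 (chr17:33819027-33824562, minus strand, GRCm38/mm10), a small subunit protein near the mRNA exit, was at 598 and 702 CPM in fetal liver, at 419 CPM in periphery at E13.5 (413 to 424) and at 3121 CPM at E14.5 (3104 to 3138), a fold of 2.66. The last of these libraries stood far above the other 3. Rps29 (chr12:69157722-69159186, minus strand), a zinc-binding small subunit protein, had 461 and 526 CPM in fetal liver, then 1199.7 and 4938 CPM in periphery, a fold of 1.81 between the periphery stages. Rpl38 (chr11:114668524-114672331, plus strand), known from the tail-short mouse for its part in translating Hox mRNAs, had 532, 656, 860.45 and 2849 CPM in the same order, a fold of 1.49. For both genes the periphery library at E14.5 was the highest of the 4.

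Rps26, which lies beside the mRNA exit channel, had 614 and 1704 CPM at the periphery stages, a fold of 1.24. Rpl27 followed at 15.9 and 49.2 CPM, a fold of 1.15, and is among the members whose reads are hard to assign. Further members above by 0.5 or more were Rpl39l at 1.11, Rpl15 at 0.75, Rpl37a at 0.64, Rpl39 at 0.63, Rpl41 and Rpl37 at 0.60 each, and Rpl6 at 0.59. Most of these encode very short basic proteins of the large subunit. Sequence sharing touches the upper side too. Rps26, Rpl41, Rps28 and Rpl6 shared 49.7, 46.3, 29.9 and 25.9% of their words with a gene of the periphery list. Their values are therefore uncertain as well. Rps29, Rpl38, Rpl39l, Rpl15, Rpl37a, Rpl39 and Rpl37 shared 0%.

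The lowest folds were those of Rpl9 at -2.29, Rpl23a at -2.20, Rps7 at -1.69, Rpl35 at -1.36 and Rpl7a at -1.31. Rps7, a small subunit protein mutated in some cases of Diamond-Blackfan anaemia, had 2004 and 2337 CPM in fetal liver, then 3940.3 and 1422 CPM in periphery. Its E13.5 periphery library was the highest of the 4 and its E14.5 periphery library the lowest. Each of these 5 shared at least 34.0% of its words with a gene of the periphery list. Among members without shared words the lowest folds included Rpl12 at -1.16, Rps20 at -1.10, Rpl28 at -0.96 and Rpsa at -0.94. Rpsa had 6996, 6762, 4971 and 3038 CPM in the order above, so that here the periphery library at E14.5 was the lowest.

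Members with named roles differed in size, and the listed anaemia genes lay on both sides of the median, as the members did as a whole. The stalk base Rplp0 had 5528 and 3029 CPM at the periphery stages, a fold of -1.09. Its partners Rplp2 and Rplp1 had folds of -0.98 and -0.12, so as counted the stalk genes were not lower by like amounts. Rplp0, Rplp2 and Rplp1 shared 25.2, 37.6 and 54.5% of their words with genes of the periphery list, so these folds are uncertain. Rpl5 and Rpl11, which with the 5S RNA form the particle that binds Mdm2 and stabilises p53, had folds of -0.80 and -1.09. Rpl5 shared 0% of its words with the periphery list and Rpl11 25.2%. Rpl22, known for its need in T cell development, had 1703 and 1303 CPM, a fold of -0.61. Rps27l, a p53-induced paralog of Rps27, had 913 and 916 CPM and a fold of -0.22. A list of 11 Diamond-Blackfan anaemia genes was used, and it does not hold every gene reported for the disease. Of these 11, 2 lay above the median and 9 below (median -0.76). That is close to all 77 measured members, of which 15 lay above and 62 below (median -0.67). Among the 11 listed, the lowest were Rps7 and Rpl11, and the 2 above were Rps26 and Rpl15. Other members, not on this list, were not sorted by their part in the disease.

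The shortest members stood apart in periphery. Of the 11 measured members with at most 300 coding nucleotides, 9 lay above the median of all genes measured, and their median fold was 0.63. The 15 members of 300 to 400 nucleotides had a median of -0.60, the 30 of 400 to 600 had -0.73, the 18 of 600 to 900 had -0.76, and the 3 longer ones -0.52. Beyond the shortest group the medians thus followed no steady order. The 204 other genes with at most 300 coding nucleotides had a median of -0.13, with 39.2% of them above 0. Among the 53 measured members with under 5% shared words in both lists, 7 of the 8 shortest lay above, at a median of 0.63, and Spearman's rank correlation of fold and length was -0.46. This correlation runs across genes that share both libraries and is a description without a test. Over all 77 members it was -0.43, and over the 7060 other genes 0.28.

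In fetal liver shorter members also lay higher, on a much narrower scale, and so did other short genes. The 10 shortest members had a median fold of 0.20 and all 10 lay above 0, the 16 of 300 to 400 nucleotides had 0.16, and the 18 of 600 to 900 had -0.01. The 204 other genes with at most 300 coding nucleotides had a median of 0.15, and 77.5% of them lay above 0. The rank correlation was -0.65 over 77 members and -0.17 over 7582 other genes. The plot of fold against coding length shows both tissues on 1 scale.

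**Figure D2:**
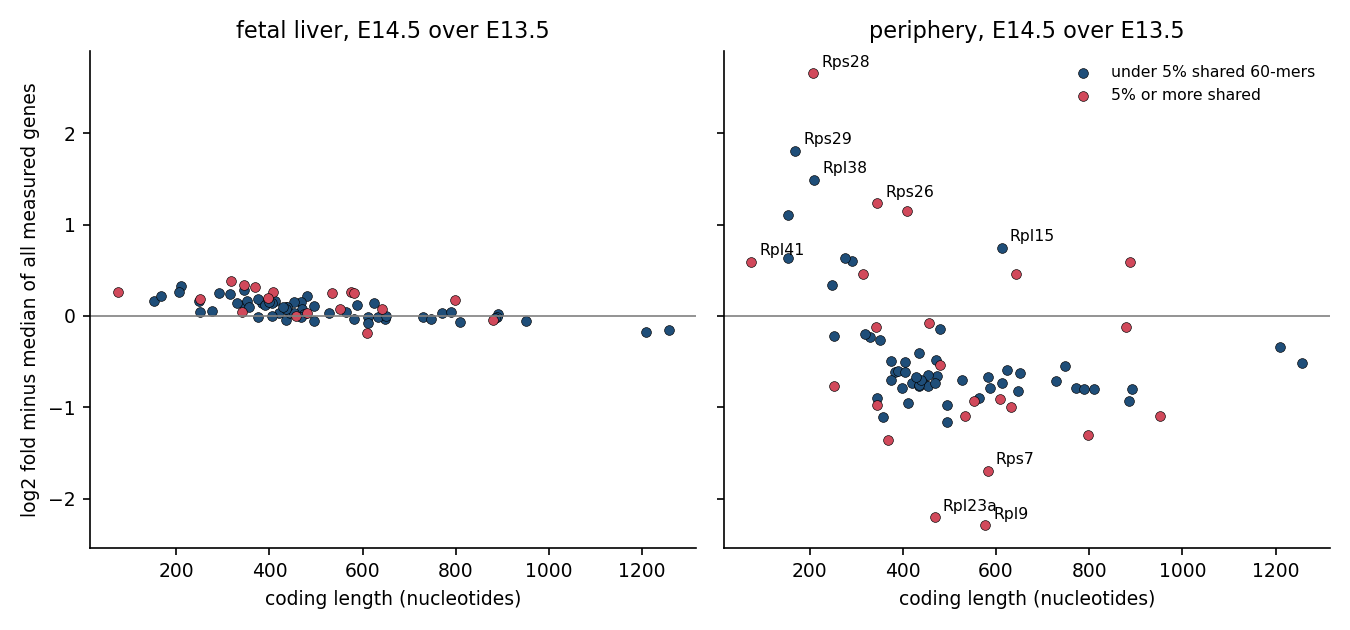
Stage fold of each measured member (vertical axis, log2 fold of E14.5 over E13.5 minus the median of all measured genes) against its coding length in nucleotides, in fetal liver (left) and periphery (right). Red points share 5% or more of their 60-base words with another gene of that tissue's list. Fetal liver folds lie between -0.19 and 0.39, while in periphery Rps28, Rps29 and Rpl38 lie at 1.49 or more and Rpl9 and Rpl23a below -2.

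The lower arm of the periphery folds was found in each of the 5 cell classes with at least 50 cells at both stages, the upper arm beyond the share of all genes in LTi-like, group 1 and B lineage-like cells. Comparisons within classes use the same 2 libraries as the pooled one. In LTi-like cells 13 members were 0.5 or more above the class median, where 5.93% of all genes were, and 47 as far below it, where again 5.93% were. In group 1 cells 12 members were as far above, where 7.91% of all genes were, and 47 below (7.97%), and in B lineage-like cells 15 were above (7.74%) and 38 below (8.13%). Mast cell or basophil-like cells had 12 above (14.4%) and 40 below (12.5%), and monocyte or macrophage-like cells 10 above (18.4%) and 54 below (17.2%). In monocyte or macrophage-like cells 10 of 77 above is a smaller share than that of all genes, and in mast cell or basophil-like cells 12 of 76 is close to it. Over the 5 classes the members' median ran from -0.74 to -0.48. Rps28 was higher in all 5 classes, with folds from 2.68 to 2.75. In LTi-like cells it went from 411 CPM (402 to 421) to 3127 CPM (3106 to 3147), and in B lineage-like cells from 419 to 3157 CPM. Rps29 was higher by 1.80 to 1.93, and Rpl38 by 1.39 to 1.62. On the lower side Rps7 had folds from -1.78 to -1.57, Rpl12 from -1.34 to -0.89 and Rpsa from -1.02 to -0.68. For each of these 6 members the folds had 1 sign in all 5 classes.

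Fetal liver classes showed little of this. Over 8 groups of clusters the members' median ran from -0.05 in LTi-like cells to 0.12 in lymphoid progenitor-like cells, and at most 2 members were 0.5 or more above and at most 1 as far below. In LTi-like cells 1 member was above, where 6.13% of all genes were, and 1 below (4.92%). Group 1 cells had 2 above (6.5%) and 1 below (7.73%), B lineage-like cells 2 above (4.72%) and 0 below (8.49%), and neutrophil lineage-like cells 2 above (2.07%) and 0 below (3.81%). Mast cell or basophil-like cells had 0 above (4.64%) and 1 below (3.59%). No member was as far out in lymphoid progenitor-like cells, where 0.812 and 1.55% of genes were, in stem and multipotent progenitor-like cells (0.659 and 0.91%) or in clusters FL5 and FL9 together (2.12 and 0.858%). FL5 is plasmacytoid-like, while FL9, with 1906 cells, shares Tmem121, Jchain and Arpp21 among its leading genes with the lymphoid progenitor-like cluster FL3. Rps28, the member that differed most in periphery, had fetal liver folds from -0.04 to 0.24, and Rpsa from -0.23 to -0.02.

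**Figure D3:**
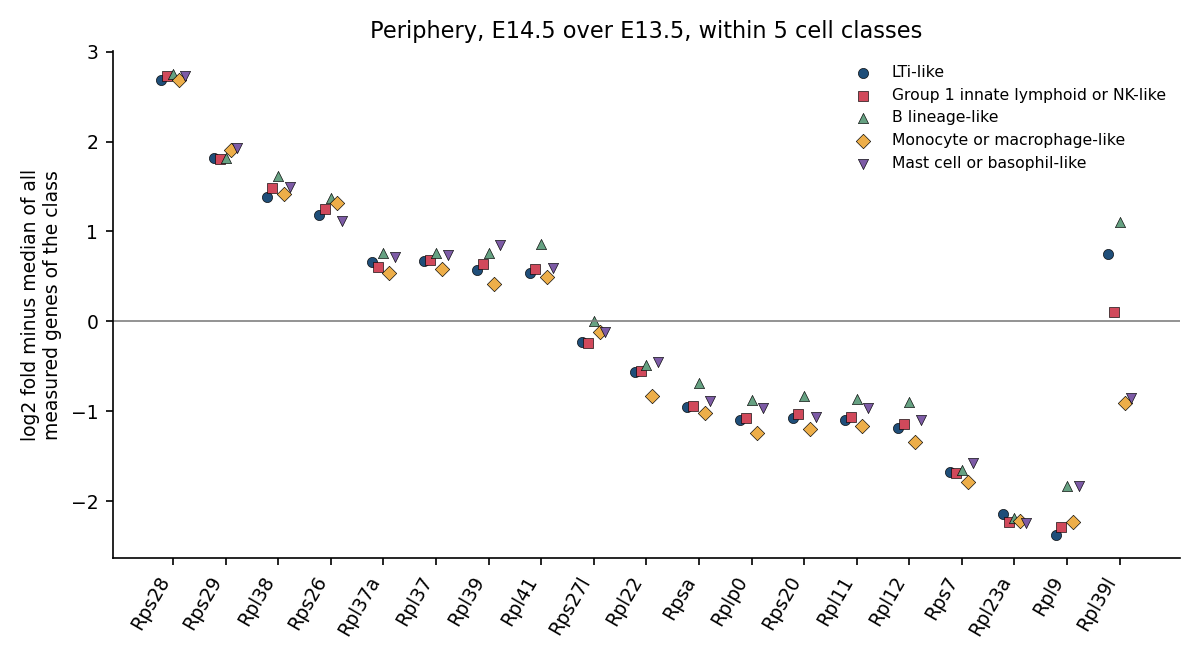
Periphery stage fold (vertical axis, log2 fold of E14.5 over E13.5 minus the median of all measured genes of the class) of 19 members in 5 cell classes, each with its own symbol. For Rps28 all 5 classes lie between 2.68 and 2.75 and for Rps7 between -1.78 and -1.57, whereas for Rpl39l they spread from -0.91 to 1.11.

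Promoter starts are shown for members of both directions because the TOP tract is the element these genes are best known for sharing. RefSeq (GRCm38.p6) held a 300-base promoter window for 60 of the 80 members. Each line below runs 5′ to 3′ from 20 bases before to 30 bases after the annotated start, with any tract of a C and at least 7 further pyrimidines in capitals. The search read the gene's own strand only. The first 4 genes were higher at E14.5 in periphery, the next 3 lower.
Rpl38: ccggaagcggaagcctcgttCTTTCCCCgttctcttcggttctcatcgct
Rps26: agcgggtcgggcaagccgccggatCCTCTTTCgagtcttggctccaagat
Rps28: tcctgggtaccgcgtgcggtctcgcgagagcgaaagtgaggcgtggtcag
Rpl41: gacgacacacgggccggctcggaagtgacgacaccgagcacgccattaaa
Rps7: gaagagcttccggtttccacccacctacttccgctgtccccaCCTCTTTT
Rpl11: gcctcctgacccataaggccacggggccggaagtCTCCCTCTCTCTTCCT
Rplp0: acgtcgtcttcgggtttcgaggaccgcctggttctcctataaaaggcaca
The windows lie at chr11:114668560-114668609 (plus strand) for Rpl38, chr10:128626477-128626526 (minus) for Rps26, chr17:33824533-33824582 (minus) for Rps28 and chr10:128549139-128549188 (minus) for Rpl41. Those of the other 3 are chr12:28635924-28635973 (minus) for Rps7, chr4:136053364-136053413 (minus) for Rpl11 and chr5:115559447-115559496 (plus) for Rplp0.

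Both directions held members with and without such a tract. A tract of at least 8 bases lay in this window in 32 of the 60 members (53.3%), against 17% of the 27025 genes of the table. It was found in 4 of the 13 matched members above the periphery median (30.8%) and in 27 of the 44 below it (61.4%). A C and 4 pyrimidines exactly at the annotated start were found in 13 members (21.7%) and in 3.01% of all genes, with 3 of 13 above (23.1%) and 10 of 44 below (22.7%). Annotated starts can lie some bases off the start used, so these matches describe the letters in the window only.

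Rpl39l was the member that varied most among periphery cells. It is a paralog of Rpl39, a short protein at the exit tunnel of the large subunit, and is best known from the testis. Rpl39l lies at chr16:10170226-10174911 (plus strand), has 153 coding nucleotides like Rpl39, and shared no 60-base word with another listed gene. It had 4.89 CPM (4.59 to 5.21) and 6.82 CPM (6.44 to 7.21) in fetal liver (E13.5, E14.5), and 17.0 CPM (15.9 to 18.2) and 50.5 CPM (48.4 to 52.7) in periphery. Its level was thus highest in the library with most LTi-like cells, and 83.7% of its 2136 UMIs there came from LTi-like cells, which were 73.0% of the cells. At E13.5 the LTi-like cells were 35.5% of the periphery cells and gave 55.5% of its 856 UMIs. The 35.5% depends on the clustering, and the 55.5% was not recomputed with other clusterings.

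Within LTi-like cells Rpl39l was at 29.7 CPM (27.1 to 32.5) at E13.5 and 63.5 CPM (60.6 to 66.5) at E14.5. The highest cluster was P16, an LTi-like cluster led by Ccdc184 and Madcam1, with 138 CPM (129 to 149) over 798 cells at E14.5. The other LTi-like clusters of E14.5 followed with 60.9 CPM in P1, 47.4 in P6, 44.3 in P5, 37.4 in P8 and 26.2 in P17. Of neighbours in this order, P16 and P1 did not overlap in their counting intervals, while P6 (43.1 to 52.1) and P5 (40.4 to 48.5) did. P1, P6 and P8 were led by histone or mitotic genes, and P16 had a median of 6471 UMIs per cell.

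Rpl39l was also counted outside the clusters called LTi-like. The unnamed cluster P10, led by Cfp and H2-Aa, a class II gene of antigen-presenting cells, had 51.1 CPM (42.2 to 61.3) at the first stage and 92.2 (76.6 to 110.1) at the second. Whether such cells are named depends on the clustering, since at resolution 2 a cluster of 326 cells led by Cfp and Wdr95 was LTi-like and another of 289 cells led by H2-Aa stayed unnamed. The group 1 cluster P3 had 14.1 CPM (8.83 to 21.3) and 25.04 CPM (18.2 to 33.6), the latter overlapping the LTi-like cluster P17. The monocyte or macrophage-like cluster P13 had 26.6 and 13.498 CPM, with intervals that overlap. Low values were found in the plasmacytoid-like cluster P12 with 3.71 CPM at E13.5, in the other group 1 cluster, P4, with 10.3 and 6.52, and in the mast cell or basophil-like cluster P15 with 10.0 and 4.33. B lineage-like cells had 4.68 CPM (2.90 to 7.16) at E13.5 and 18.1 CPM (14.8 to 21.8) at E14.5. In fetal liver the LTi-like cells had 7.08 CPM (4.98 to 9.76) and 14.1 CPM (9.65 to 19.9). Rpl39 itself was at 2236 and 3905 CPM in LTi-like cells of periphery and at 2149 and 4039 CPM in B lineage-like cells. These 2 classes thus differed much less in Rpl39 than in its paralog.

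**Figure D4:**
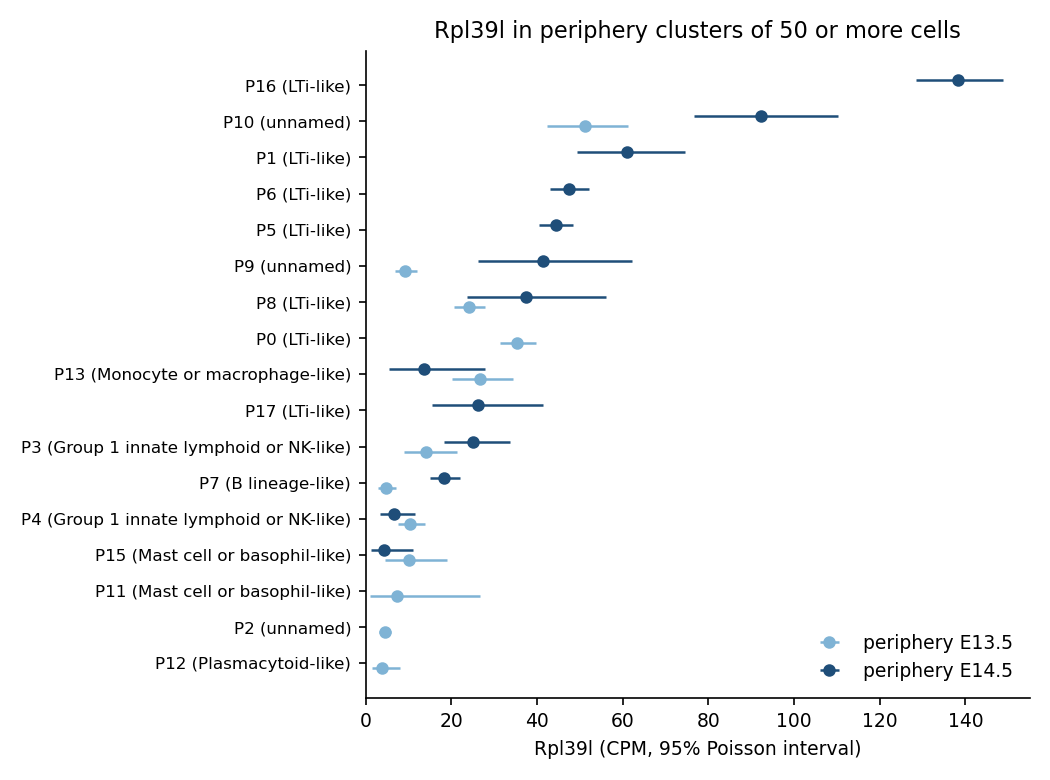
Rpl39l (horizontal axis, CPM with exact 95% Poisson intervals) in the periphery clusters of at least 50 cells at E13.5 (light) and E14.5 (dark). The LTi-like cluster P16 stands at 138 CPM, above the unnamed cluster P10 at 92.2, while P12 and P15 lie at 3.71 and 4.33.

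Within a library the other members varied much less between clusters. As the SD over clusters of a member's log2 share of all ribosomal protein UMIs, taken around the mean of each library so that stage differences do not enter, the median over 77 members was 0.09 in fetal liver and 0.08 in periphery, against 1.25 for Rpl39l in periphery. Members under 10 CPM in both libraries of a tissue were not scored. Rpl39l, at 4.89 and 6.82 CPM, therefore has no SD in fetal liver, and its variation there cannot be compared with periphery. Among the members scored in fetal liver the highest SDs were those of Rps12 at 0.27, Rpl27 and Rpl10 at 0.25, Rps27 at 0.24 and Rpl31 at 0.23. For Rpl27, Rpl10 and Rps27 counting error gives an SD of 0.23 on its own and for Rps12 0.17, whereas for Rpl31 it gives 0.04. Rpl31, a protein at the tunnel exit, had 1185 CPM (1161 to 1209) in the plasmacytoid-like cluster FL5 and 493 CPM (477 to 509) in the mast cell or basophil-like cluster FL16 at E14.5. The same classes were at the ends in periphery at E13.5, with 4741 CPM in P12 and 2246 in P15.

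After Rpl39l the highest SDs in periphery were those of Rps27 at 0.30, Rpl10 at 0.25, and Rpl27 and Rps2 at 0.24. Counting error gives 0.23, 0.18 and 0.25 for the first 3 and 0.03 for Rps2, and 0.34 for Rpl39l. Rps2, which lines the mRNA entry channel, was highest in the B lineage-like cluster P7, with 2778 CPM at E13.5 and 3773 at E14.5. In CPM it was lowest in P10 with 1509 at E13.5 and in P15 with 1641 at E14.5. P15 also had the lowest ribosomal protein share of that library, 18.1%. By log2 share of ribosomal protein UMIs, Rps2 was lowest in P10 at E13.5, at -0.53 from the library mean. Rps2 shared 75.7% of its words with a gene of the periphery list, so its level is uncertain. In CPM, Rps27l was highest in fetal liver in FL6, an unnamed cluster led by Csf1r and Irf8, with 713 and 733, and lowest in FL16 with 349 and 314. FL16 also had the lowest ribosomal protein share of fetal liver. By log2 share of ribosomal protein UMIs, Rps27l was lowest in the B lineage-like cluster FL15 at E13.5, at -0.55 from the library mean.

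Between tissues most members were lower in fetal liver. At E13.5, of 78 measured members 60 were 0.5 or more below the median of all genes and 5 as far above it, where 27% and 25% of all 7986 genes were. The members' median was -1.10. At E14.5 there were 41 below and 13 above, where 26.3% and 25.1% of 8118 genes were, with a median of -0.63. Without centring, 14 of 78 members were higher in fetal liver at E13.5 in place of 7, and 28 at E14.5 both ways. The uncentred shares of all genes were not computed here either.

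A few members differed by much more than the group, and in both directions. Rpl13a, which joins the complex that silences inflammatory mRNAs, had 416 and 356 CPM in fetal liver and 9537 and 5939 CPM in periphery, folds of -4.91 at E13.5 and -4.21 at E14.5. It was the highest of all members in periphery at E13.5. Rpl36a had 336 and 432 CPM against 2324 and 2371, folds of -3.18 and -2.61, and Rps18 had 775 and 758 CPM against 4176 and 4629, folds of -2.83 and -2.77. For each of these 3 the tissues did not overlap. Also far below were Rpl31 at -2.55 at E13.5, and at E14.5 Rps29 at -3.39 and Rpl37a at -2.69.

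In the other direction Rpl15 had 2879 and 2795 CPM in fetal liver and 205 and 407 in periphery, folds of 3.37 and 2.60. Rpl6 had 3418 and 3308 CPM against 387 and 685, folds of 2.72 and 2.10. Rpl23a had 1102 and 1203 CPM against 241 and 57.7, folds of 1.76 and 4.10. For these 3 both fetal liver libraries lay above both periphery libraries. Rps26 was at 1.30 and Rps12 at 0.92 at E13.5. Rpl9 was at -0.89 at E13.5 and at 1.65 at E14.5, so its direction differed between stages.

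**Figure D5:**
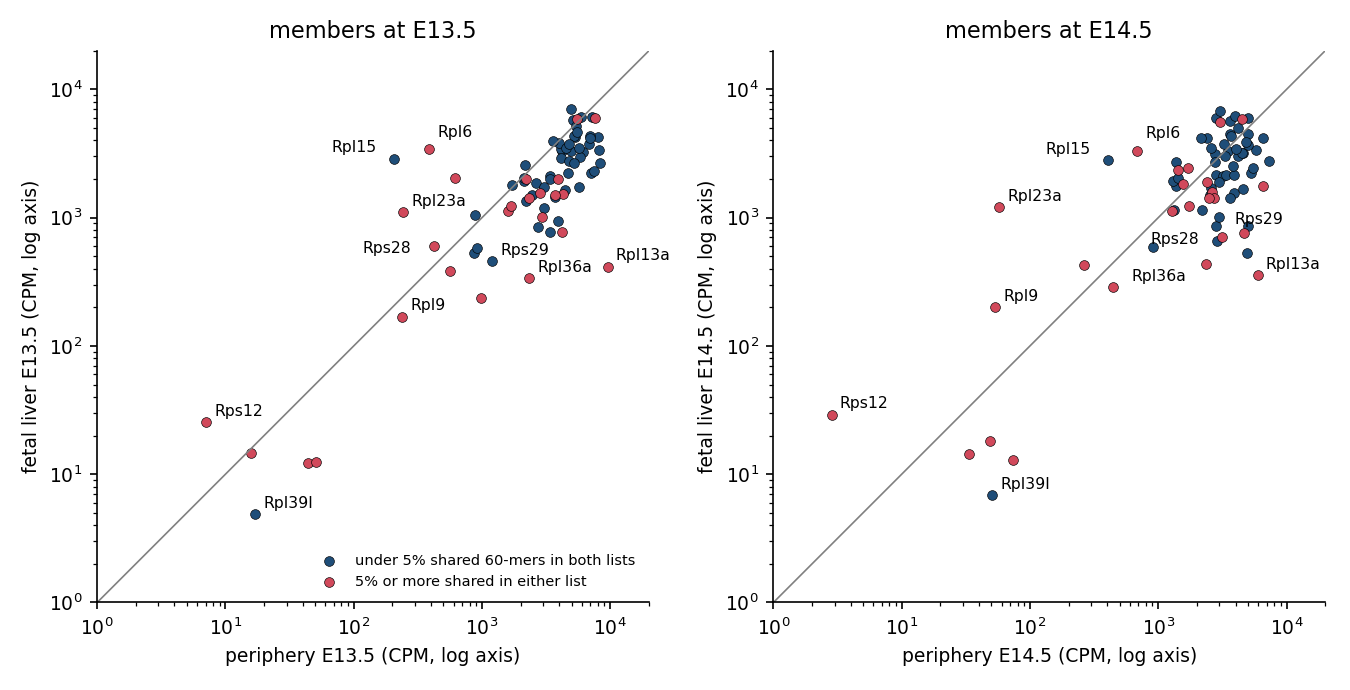
Level of each member in fetal liver (vertical, CPM, log axis) against periphery (horizontal, CPM, log axis) at E13.5 (left) and E14.5 (right), with the line of equal levels. Red points share 5% or more of their 60-base words with another gene of either list, and Rpl3l and Rpl10l lie below the axes. Rpl13a lies far to the right of the line, at 416 against 9537 CPM at E13.5, and Rpl15 far to the left, at 2879 against 205.

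The 2 gene lists differed in what they count beside some of these members. The periphery list held 18 ribosomal pseudogene symbols and the fetal liver list 9. Rpl23a-ps3 stood only in the periphery list, with 165 and 283 CPM, and Rpl23a shared 74.8% of its words with a gene of that list and 0% with the fetal liver list. Rps26-ps1 likewise stood only in the periphery list, with 38.2 and 61.2 CPM, and Rps26 shared 49.7% of its words there and 0% in fetal liver. Rpl36a shared 58.0% with the fetal liver list, which holds Rpl36a-ps1, and 2.83% with the periphery list. Rps18 shared 75.3% with the fetal liver list and 57.1% with the periphery list, and Rpl6 0 and 25.9%. Rpl15 shared 0% with either list and Rpl13a 17.5% with each, equal for both tissues. The part of the lists, the kits and the tissues in these folds cannot be told apart.

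Ribosomal proteins that the symbol form leaves out behaved as unevenly. Fau, whose product includes the small subunit protein eS30, had 3197 and 3331 CPM in fetal liver and 12.9 and 19.4 CPM in periphery. Rpl36al, a retrocopy-derived paralog of Rpl36a, had 107 and 123 CPM in fetal liver and 1277 and 1148 in periphery, the same direction as Rpl36a. Rps3a1 had 6013, 5939, 5480 and 3804 CPM. The scaffold protein Rack1 was listed under that name in fetal liver, at 2492 and 2390 CPM, and as Gnb2l1 in periphery, at 2245 and 1404. Rps3a1 and this gene were lower at E14.5 in periphery, as most members were.

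Most genes of the wider translation machinery lay below the median of all genes between the periphery stages, a median that itself stood at 0.23 before centring. Of 14 translation factors and other mRNAs of the TOP class, 2 lay above the periphery median and 12 below (median -0.49). The lowest were the elongation factor gene Eef1b2 at -1.08 and Tpt1 at -0.91, and the highest Eif3f at 1.16 and the poly(A)-binding protein gene Pabpc1 at 0.06. In fetal liver 6 of the 14 lay above and 8 below (median -0.03), from Eif4b and Eef2 at -0.17 each to Eef1d at 0.17 and Nap1l1 at 0.19. Of 25 measured ribosome biogenesis genes, 3 lay above and 22 below in periphery (median -0.15), with Nhp2 at -0.55 and Fbl, the nucleolar methyltransferase gene, at -0.49 lowest, and Rrs1 at 0.71 and Ubtf at 0.14 highest. Only 1 of the 25 was 0.5 or more below, and their median lies within the all-gene shift, so that without centring they were not lower on balance. In fetal liver 19 of 27 lay above (median 0.10), from Polr1a at -0.13 and Bop1 at -0.12 to Ddx21 at 0.28 and Gar1 at 0.29.

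The mitochondrial ribosome, a separate set of proteins that translates mitochondrial mRNAs, lay slightly below the median of all genes between the periphery stages. Of 77 measured genes, 11 lay above and 66 below, with a median of -0.23, the size of the all-gene shift, so that without centring the set was about level. Only 5 were 0.5 or more below, a smaller share than the 8.36% of all genes. They ran from Mrpl34 at -0.57 and Mrps15 at -0.55 to Mrps30 at 0.28 and Mrps21 at 0.36. In fetal liver 57 of 77 lay above, with a median of 0.06, from Mrps30 at -0.28 and Mrps2 at -0.12 to Mrps18a at 0.47 and Mrpl52 at 0.48. Of 11 measured genes of Myc and mTOR signalling in periphery, 5 lay above and 6 below (median -0.15). Eif4ebp1 and Lamtor1 were at -0.58 each, Max at 0.15 and Myc at 0.52, on 19.2 and 35.6 CPM. In fetal liver 7 of 14 lay above (median 0.01), with Mycn at -0.95 and Lamtor1 at -0.26 lowest and Eif4e at 0.20 and Myc at 0.22 highest. Of the cell-cycle lists, 11 of 16 S phase and 11 of 15 G2 and M phase genes lay above in periphery (medians 0.14 and 0.21), and the part of cycling in the members' folds was not tested.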

How the data were processed

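The deposited values are raw UMI counts of each gene in each barcode. Per the file headers Cell Ranger 3.0.0 made the fetal liver matrices and 3.0.1 those of periphery, on mm10 per the submitters' processing notes. Which gene model releases were used is not given in the sources used here. Barcodes were kept from 500 genes and up to 10% mitochondrial UMIs. Doublets were scored with Scrublet in Scanpy 1.11.5 and removed, by its automatic threshold in fetal liver (3.93 and 7.43%) and at the expected rate in periphery (3.25 and 3.35%). UMIs were summed per library, class or cluster and given as CPM with exact Poisson intervals, and shares with exact Clopper-Pearson intervals, both at 95%. Clusters came from 2000 variable genes without ribosomal, mitochondrial, haemoglobin and cell-cycle genes, 30 principal components, 15 neighbours and Leiden at resolution 1. They were called like a cell type from marker lists, by a rule settled after the clusters had been seen. Positions, coding lengths and 60-base words came from GENCODE M21, and TMM factors from edgeR 4.0.16 as an alternative scaling. The fold computation was tested on simulated data. Named members were the 5 highest and 5 lowest of each comparison, the 5 of highest level, the 5 of highest SD over clusters per tissue, and the stalk, 5S particle and paralog genes, with 2 at each end of other lists. Some genes that this rule takes in are not reported here. Further members, the promoters and the alternatives added later were chosen after their values were seen. The members and lists were chosen with earlier results of these data known.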

Additional observations from a re-analysis of the deposited data

Results flagged for a closer look

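Some ribosomal signal lay outside the measured members. Rps4l, a paralog of Rps4x that stands in the periphery list only and therefore is no member, had 302 CPM in periphery at E13.5 and 219 at E14.5. Pseudogene symbols summed to 279.6 CPM in fetal liver at E13.5, 210.2 at E14.5, 735 in periphery at E13.5 and 819 at E14.5. They were counted from 9 symbols in fetal liver and 18 in periphery, so the sums are not like for like. They came to 0.11 to 0.35% of the ribosomal protein and pseudogene UMIs of a library.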

How the results depend on the processing

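No paired analysis was possible because each group holds 1 library and no result comes from a test. Under all 6 alternatives the share of UMIs was highest in E13.5 periphery, then in E14.5 periphery, although it left its narrow counting interval in 22 of 24 cases. In fetal liver (E13.5, E14.5) and periphery (E13.5, E14.5) it was 18.4, 18.7, 28.4 and 23.0% over all barcodes, 18.1, 18.6, 28.5 and 23.1% for cells from 1000 genes and up to 5% mitochondrial UMIs, and 18.6, 18.6, 28.3 and 23.0% as a mean over cells. It was 19.3, 19.5, 29.4 and 23.9% over shared IDs without mitochondrial genes, and 19.5, 19.9, 29.4 and 23.8% with the genes outside the symbol form. With doublets kept it was 18.4% in fetal liver at E13.5 and 23.1% in periphery at E14.5.

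Of 156 recomputed counts of members, 142 stayed within 1.5 times the reported count. In LTi-like cells alone, 33 fetal liver members lay above the median at E14.5, with 1 member 0.5 or more above and 1 as far below, and the members' median was -0.0478 in place of 0.08. In B lineage-like cells 2 members were 0.5 or more above. Without centring 32 periphery members were 0.5 or more below, and 14 were above at E13.5 between tissues, or 15 with no minimum level. For these counts no share over all genes was computed. The 55 members under 5% shared words gave 37 above in fetal liver, 8 above and 7 of them by 0.5 or more in periphery, 2 and 1 (E13.5) or 18 and 6 (E14.5) between tissues; this alternative counts fewer members. Folds were recomputed for the 5 highest and 5 lowest members of each comparison only, which are the least likely to change sign. None of these with a fold of 0.5 or more changed sign, while 351 of 480 recomputed folds moved beyond counting error. Between the fetal liver stages no fold reached 0.5, so no change of sign could be called there. The LTi, B lineage, shared-word and shallow-cluster alternatives were chosen after seeing the data.

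With other clusterings LTi-like cells were at 17.7 and 17.2% in fetal liver (seed 2), and at resolution 0.5 no fetal liver cluster carried that name. In E13.5 periphery they were at 27.5% (resolution 2), 28.5% (resolution 0.5) and 28.4% (seed 2), and in E14.5 periphery at 22.7, 22.8 and 22.8%. The number of E13.5 periphery cells called LTi-like changed too. It was 1478 at resolution 1, whereas at resolution 0.5 a first LTi-like cluster alone held 1711. At resolution 2 a cluster led by Il22, with 509 cells of E13.5, stayed unnamed. B lineage-like cells of fetal liver were at 19.1 and 18.9% at resolution 0.5. Depth limits Rpl3l and Rpl10l, which had too few UMIs for a fold.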
